A study of Ovis aries with 16 samples.

Results

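The endothelial identity and junction genes are a set of 10 genes that mark the cells lining blood vessels or hold those cells together. Their probe sets were taken by gene symbol from the probe table of the bovine array, and only probe sets with a single symbol were used. This gave 14 probe sets for 9 genes, out of 24016 probe sets and 9155 genes tested. ADGRL4, FLI1, CLDN5 and ROBO4 had 1 probe set each, and PECAM1, ERG, EMCN, CDH5 and VWF had 2, called here the brighter and the dimmer one by their mean over all lambs. ESAM, an adhesion molecule of endothelial tight junctions, had no probe set in the table and was not analysed here. The genes were chosen by their endothelial role with the log2 differences between the groups in view, among them those of ADGRL4, PECAM1, FLI1 and EMCN. All differences of the set between shunt and control are therefore a description and support nothing by themselves.

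RNA came from the peripheral lung of sheep (Ovis aries) at 3 days of age, 8 shunt lambs and 8 control lambs, with 1 array for each. In the fetus, shunt lambs received a Gore-tex graft of 8.0 mm, 2 mm in length, that joined the main pulmonary artery to the ascending aorta, so that blood from the aorta enters the lung circulation. For control lambs the operation on the ewe was a sham, and surgery in both groups fell 9 ± 6 days before term. The labels give no strain, sex or litter, and nothing beyond the separate sample names says that each array is a separate lamb, so p-values measure the spread between these arrays.

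Endothelial cells are joined by adherens junctions, built on the cadherin CDH5, and by tight junctions, in which CLDN5 is a main component. The adhesion molecule PECAM1 lies at the same borders and is part of a complex through which endothelium senses flow. The ETS transcription factors ERG and FLI1 maintain endothelial identity, and ERG is known from human endothelial cells to activate CDH5. VWF, the clotting glycoprotein stored in Weibel-Palade bodies, is known to be sparse in lung capillaries and richer in larger vessels.

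Values are log2 levels made by RMA, and levels of different probe sets cannot be set against each other. The brighter or only probe sets of ADGRL4, PECAM1, FLI1, ERG, EMCN, CDH5 and ROBO4 lay between percentiles 89.7 and 99.1 of all probe sets by mean level, a rank that says how bright the signal is and not how abundant the RNA is. CLDN5 lay at percentile 48.2. Both VWF probe sets, at percentiles 14.1 and 12.7, and the dimmer ERG probe set, at 19.2, lay in the dim part of the array, where the signal over background is unknown. Of the 14 probe sets, 11 lay above the dimmest 25% of the array. Array medians ran from 7.116 to 7.145 in shunt and from 7.143 to 7.191 in control lambs. RNA quality was read as the log2 difference between 3' and 5' probe sets, averaged over 3 control genes, and was 1.10 ± 0.11 in shunt and 1.07 ± 0.23 in control (SD, n = 8 each). The array of control replicate 2 differed most from the rest: its correlations with them averaged 0.983, and those of the other controls 0.990 to 0.993.

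Within the set, ADGRL4, PECAM1 and FLI1 were higher in shunt lung with little or no overlap between the groups, EMCN and ROBO4 were higher with overlap, and CDH5, ERG, CLDN5 and VWF differed little. The median difference, shunt minus control, was 0.18 on the log2 scale over the 14 probe sets, with a range from -0.11 to 0.54, beside a median of -0.01 over all probe sets. In the limma fit 2 of the 14 passed the threshold of 0.05 after Benjamini-Hochberg adjustment over all probe sets, ADGRL4 and the dimmer PECAM1 probe set, both higher in shunt. Of all probe sets 0.0708% passed, 0.0666% as higher and 0.00416% as lower. At an unadjusted p under 0.05, 7 of the 14 were higher and 0 lower (limma), against 6.42% higher and 7.32% lower among all probe sets. The same contrast was in view when the genes were chosen, so nothing is read from these shares. In whole lung, more endothelial cells and more RNA per endothelial cell cannot be told apart.

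**Figure D1:**
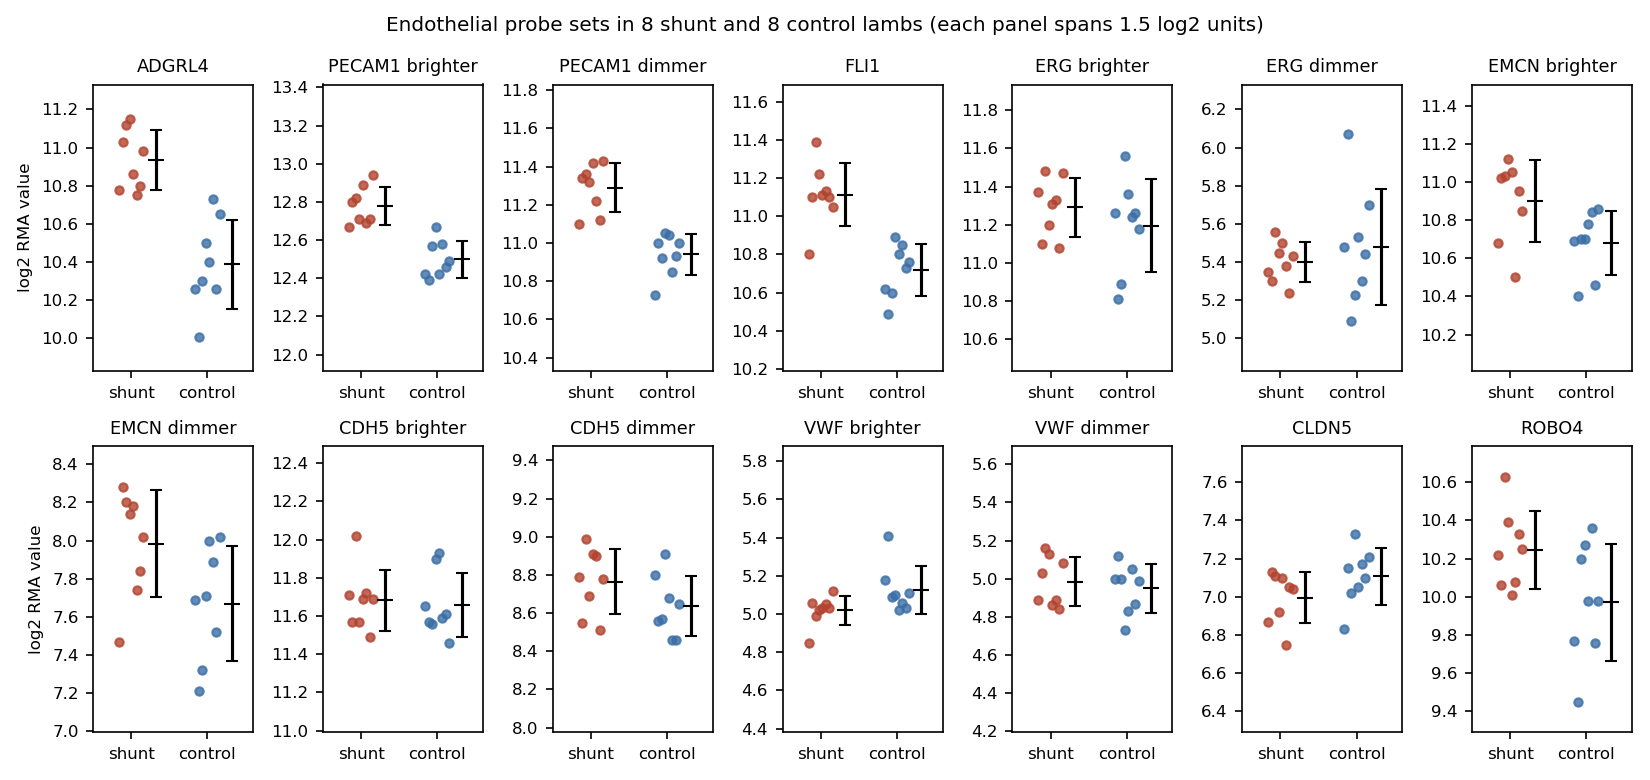
Log2 RMA value of each endothelial probe set (vertical axis, 1.5 log2 units in every panel) in 8 shunt lambs (left, red) and 8 control lambs (right, blue); points are lambs and bars are the mean with 1 SD. The groups do not overlap for ADGRL4 and the dimmer PECAM1 probe set, and they overlap for the other 12 probe sets.

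Markers of other cell types were read beside the set. Counts are over measured genes: the pericyte list named 6 genes with 4 measured, and the airway list 10 with 5 measured. Of all 9155 genes, by their brightest probe sets, 4109 were higher in shunt and 5046 lower. Pericyte markers, for the support cells of capillaries, were higher in shunt for 4 of 4 genes, with a median difference of 0.18 and a list mean from 7.88 to 8.13 in shunt and from 7.72 to 7.92 in control lambs. Smooth muscle markers were higher in shunt for 6 of 8 genes, with a list mean from 9.94 to 10.25 in shunt and from 9.69 to 10.22 in control lambs. Alveolar type 2 markers were lower for 7 of 7 genes, with a list mean from 10.40 to 10.82 in shunt and from 10.61 to 10.94 in control. Alveolar type 1 markers were lower for 5 of 6 genes, with a list mean from 10.97 to 11.24 in shunt and from 10.94 to 11.41 in control. Airway markers were lower for 5 of 5, from 6.83 to 7.42 in shunt and from 7.01 to 7.87 in control. None of the marker genes on these lists passed in the limma fit, and the ranges of the list means overlapped between the groups for each of these 5 lists. At an unadjusted p under 0.05 there were 1 of 4 pericyte and 4 of 8 smooth muscle markers higher, against 6.74% of all genes, and 3 of 7 type 2, 3 of 6 type 1 and 2 of 5 airway markers lower, against 7.92% of all genes. Their part in the endothelial differences was not tested.

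ADGRL4, an endothelial receptor of the adhesion GPCR family, had the largest difference of the set. Its level was 10.75 at the lowest, 10.92 at the median and 11.15 at the highest in shunt lambs, and 10.01, 10.35 and 10.73 in control lambs. Every shunt lamb lay above every control lamb, by 0.015 between shunt replicate 6 and control replicate 6. Of all probe sets 0.0666% lay with every shunt lamb above every control lamb and 0.075% with every shunt lamb below; of the 14, 2 did so above and 0 below. The difference was 0.54 ± 0.09 on the log2 scale (SE of the limma fit, 95% confidence interval 0.35 to 0.74), or 1.46-fold. ADGRL4 passed in 7 of 16 fits with 1 array left out, those without shunt replicates 1, 6 and 7 and without control replicates 2, 4, 6 and 8, with a difference from 0.49 to 0.59 and a limma adjusted p from 0.0176 to 0.103 over the 16.

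PECAM1, the platelet and endothelial cell adhesion molecule, was higher with both probe sets. The dimmer one ranged from 11.10 to 11.43 in shunt lambs with a median of 11.33, and from 10.73 to 11.05 in control lambs with a median of 10.97. Here too every shunt lamb lay above every control lamb, with a gap of 0.057 between shunt replicate 1 and control replicate 4. The difference was 0.35 ± 0.06 (SE, 95% confidence interval 0.22 to 0.48), or 1.28-fold. The brighter one ranged from 12.67 to 12.94 in shunt, median 12.76, and from 12.39 to 12.67 in control, median 12.48. Only control replicate 4 reached the shunt range, and 7 of 8 shunt lambs lay above all controls. Its difference was 0.28 ± 0.06 (SE), or 1.21-fold, and it did not pass (limma adjusted p = 0.0609). The dimmer probe set kept its call in 6 of 16 fits with 1 array left out, those without shunt replicates 1 and 7 and without control replicates 2, 4, 6 and 8, and the brighter one passed without shunt replicate 1.

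FLI1, a factor of the ETS family found in endothelium and megakaryocytes, ranged from 10.80 to 11.39 in shunt lambs with a median of 11.11. In control lambs it ranged from 10.49 to 10.89 with a median of 10.75. Shunt replicate 1, the lowest of its group, lay inside the control range, and the other 7 lay above all controls. The difference of 0.39 ± 0.07 (SE, 95% confidence interval 0.24 to 0.55), or 1.31-fold, missed the threshold (limma adjusted p = 0.0564). FLI1 passed in 4 of 7 other settings, those that left out dim probe sets, centred on array medians, used array weights or used a trended and robust prior, and without shunt replicate 1 or control replicate 6. Over the 7 settings its adjusted p ran from 0.0297 to 0.138. For the related factor ERG the interval of the difference included 0. The brighter ERG probe set ranged from 11.08 to 11.48 in shunt, median 11.32, and from 10.81 to 11.56 in control, median 11.25, with 0 of 8 shunt lambs above the highest control. Its difference was 0.10 ± 0.09 (SE), with a 95% confidence interval from -0.10 to 0.29. The dimmer ERG probe set was at -0.08 ± 0.10, and its highest value, 6.07, was in control replicate 2.

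PECAM1 and FLI1 are also made by blood cells. Neutrophil markers were lower in shunt for 6 of 6 genes, with a list mean from 6.37 to 6.60 in shunt and from 6.37 to 7.05 in control lambs. Of the 6, 3 were lower at an unadjusted p under 0.05 (limma), against 7.92% of all genes. Platelet and megakaryocyte markers, 3 genes with PF4 and ITGA2B among them, were higher for 1 of 3, with a list mean from 6.15 to 6.58 in shunt and from 6.22 to 6.69 in control. T cell markers were higher for 3 of 7 and macrophage markers for 2 of 6. At an unadjusted p under 0.05 (limma), 1 T cell marker was lower and 1 macrophage marker higher, against 7.92% and 6.74% of all genes. The part of blood cells in the PECAM1 and FLI1 differences was not tested.

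CDH5, the cadherin of endothelial adherens junctions, did not separate the groups. Its brighter probe set ranged from 11.49 to 12.02 in shunt, median 11.69, and from 11.46 to 11.93 in control, median 11.60. The difference was 0.02 ± 0.08 (SE), with a 95% confidence interval from -0.14 to 0.19. It turned below 0 without shunt replicate 3, the highest CDH5 of its group, without control replicate 8 and after quantile normalization again. The dimmer CDH5 probe set was at 0.13 ± 0.08, with a 95% confidence interval from -0.04 to 0.30. CLDN5, the claudin of endothelial tight junctions, ranged from 6.75 to 7.13 in shunt, median 7.05, and from 6.83 to 7.33 in control, median 7.13. Its difference of -0.11 ± 0.07 (SE, 95% confidence interval -0.26 to 0.04) was the lowest of the set, and 2 of 8 shunt lambs lay above the control mean.

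EMCN, a sialomucin of capillary and venous endothelium, was higher with both probe sets, with overlap. The brighter one ranged from 10.50 to 11.12 in shunt, median 10.98, and from 10.40 to 10.86 in control, median 10.70. Above all controls lay 5 of 8 shunt lambs, and shunt replicates 1 and 6 lay at or below the control mean. The difference was 0.22 ± 0.09 (SE) for the brighter and 0.32 ± 0.13 for the dimmer probe set. ROBO4, the endothelial member of the Roundabout receptors, ranged from 10.01 to 10.63 in shunt, median 10.24, and from 9.45 to 10.36 in control, median 9.98. All 8 shunt lambs lay above the control mean and 2 above the highest control, with a difference of 0.28 ± 0.12 (SE). EMCN and ROBO4 passed in none of the other settings and none of the 16 fits with 1 array left out.

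VWF gave weak signals in all lambs. The brighter probe set ranged from 4.85 to 5.12 in shunt, median 5.03, and from 5.02 to 5.41 in control, median 5.10. The dimmer one ranged from 4.84 to 5.16 in shunt, median 4.96, and from 4.73 to 5.12 in control, median 4.99. Above the control mean lay 0 of 8 shunt lambs for the brighter probe set and 4 of 8 for the dimmer one. The differences were -0.11 ± 0.06 and 0.04 ± 0.07 (SE), opposite in sign, and signals of this size do not show whether VWF RNA was equal in the groups.

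**Figure D2:**
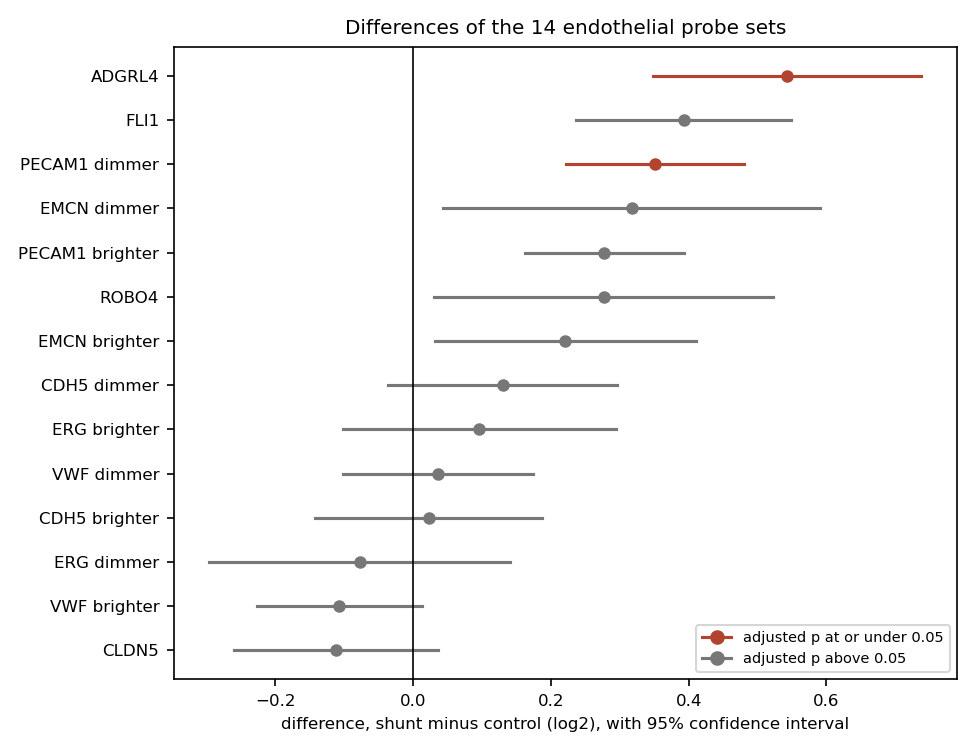
Difference in log2 level, shunt minus control, of the 14 endothelial probe sets (points) with 95% confidence intervals of the limma fit (lines); red marks the 2 probe sets past the threshold. ADGRL4 is at 0.54 at the top and CLDN5 at -0.11 at the bottom, with the brighter CDH5 probe set at 0.02.

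Some lambs were high or low across many members. Shunt replicate 3 had the highest value of its group for 7 of the 14 probe sets, those of FLI1, ROBO4, both of ERG, both of CDH5 and the dimmer one of VWF. Shunt replicate 1 had the lowest value for 5, both of PECAM1, FLI1, the dimmer EMCN and the brighter VWF probe set. Shunt replicate 7 had the lowest value for 5 as well. In control lambs, replicate 4 was the highest for 6, and replicate 2 was the lowest for 7, among them ADGRL4, FLI1, ROBO4 and both EMCN probe sets, and the highest for 3, the dimmer ERG and both VWF probe sets.

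Whether members move together over lambs was asked within each group, so that the difference between the groups does not enter. The 9 genes, each by its brighter probe set, gave 36 pairs in each group and 72 tests. Pearson's r had a median of 0.32 in shunt lambs, from -0.29 to 0.81, and of 0.41 in control lambs, from -0.75 to 0.87 (n = 8 each). Over all pairs of the 9155 genes the median was 0.012 in shunt and 0.019 in control. Among the pairs of the set 29 of 36 were positive in shunt and 28 of 36 in control, beside 51.1% and 51.5% of all gene pairs. In both groups 24 were positive, a count for which the share over all gene pairs was not computed. An r of at least 0.7 was reached by 3 pairs of the set in shunt (8.33%) and 7 in control (19.4%), beside 3.7% and 5.15% of all gene pairs. Pairs of the set share genes, and all gene pairs include dim genes and were not matched to the set by level. None of the 72 passed an exact two-sided permutation test after Benjamini-Hochberg adjustment, by r or by Spearman's rho. At an unadjusted p under 0.05 there were 3 pairs in shunt and 8 in control by r, and 2 and 6 by rho. All values of a lamb share 1 array and its normalization. The median r in control was 0.19 without control replicate 2 and 0.26 without control replicate 4, and in shunt it was 0.18 without shunt replicate 3.

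**Figure D3:**
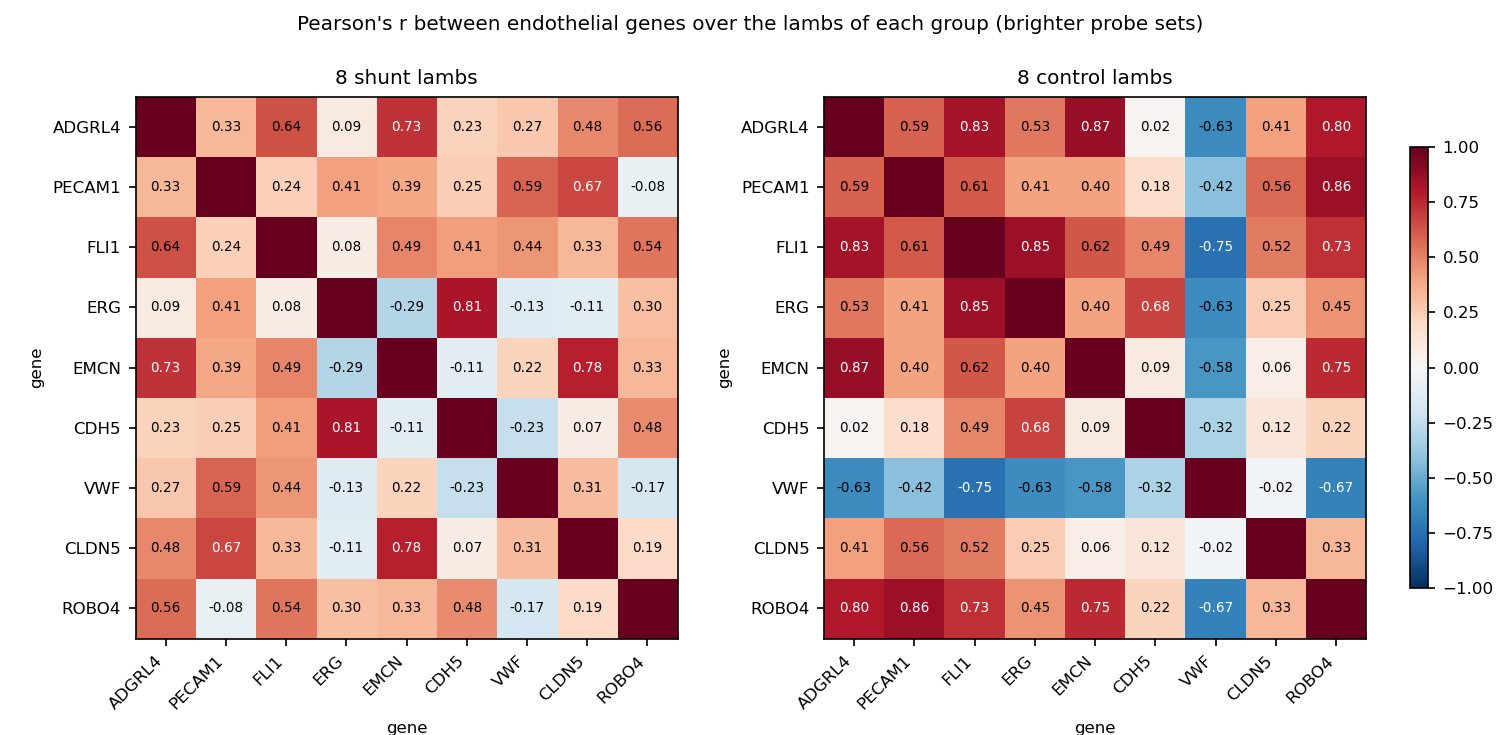
Pearson's r between the brighter probe sets of the 9 endothelial genes over 8 shunt lambs (left) and 8 control lambs (right), from -1 (blue) to 1 (red). ADGRL4 with EMCN (0.73 and 0.87) and ERG with CDH5 (0.81 and 0.68) are high on both sides, while CDH5 with ADGRL4 is low (0.23 and 0.02).

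ADGRL4 and EMCN were the pair with the highest r in the group where it was lower. In shunt lambs r = 0.73 (exact permutation p = 0.0377, adjusted p = 0.253) and rho = 0.81 (exact permutation p = 0.0218, adjusted p = 0.261). In control lambs r = 0.87 (exact permutation p = 0.00511, adjusted p = 0.126) and rho = 0.90 (exact permutation p = 0.00456, adjusted p = 0.13). Without the 2 lambs farthest from the ADGRL4 median, r = 0.61 in shunt and r = 0.72 in control. Leaving out any 1 lamb, r stayed between 0.64 and 0.83 in shunt and between 0.76 and 0.90 in control.

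ERG and CDH5, a transcription factor and a gene it is known to activate, came next. In shunt lambs r = 0.81 (exact permutation p = 0.00417, adjusted p = 0.126) and rho = 0.88 (exact permutation p = 0.00724, adjusted p = 0.13). In control lambs r = 0.68 (exact permutation p = 0.0584, adjusted p = 0.324) and rho = 0.86 (exact permutation p = 0.0107, adjusted p = 0.154). Without the 2 lambs farthest from the ERG median, r = 0.73 in shunt and r = 0.85 in control. These 2 genes differed little between the groups, and both were highest in shunt replicate 3 among shunt lambs.

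ADGRL4 and FLI1 had r = 0.64 in shunt (exact permutation p = 0.0758, adjusted p = 0.364) and r = 0.83 in control lambs (exact permutation p = 0.0113, adjusted p = 0.163). By rho they were at 0.43 in shunt (exact permutation p = 0.299, adjusted p = 0.735) and 0.79 in control (exact permutation p = 0.0279, adjusted p = 0.287). Without the 2 lambs farthest from the ADGRL4 median, r = 0.22 in shunt and r = 0.62 in control. Leaving out any 1 lamb, r stayed between 0.48 and 0.75 in shunt and between 0.70 and 0.87 in control. Taking out the farthest lambs also narrows the range of ADGRL4, so the lower r does not show that the relation rests on them. ROBO4 and ADGRL4 had r = 0.56 in shunt (exact permutation p = 0.145, adjusted p = 0.446), rho = 0.48 (exact permutation p = 0.243, adjusted p = 0.729) and r = -0.14 without the 2 farthest lambs. In control that pair had r = 0.80 (exact permutation p = 0.0163, adjusted p = 0.19), rho = 0.88 (exact permutation p = 0.00724, adjusted p = 0.13) and r = 0.42 without the 2 farthest lambs.

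PECAM1 and ROBO4 had r = -0.08 in shunt (exact permutation p = 0.861, adjusted p = 0.902; rho = -0.05, exact permutation p = 0.935, adjusted p = 0.976). In control that pair had r = 0.86 (exact permutation p = 0.00702, adjusted p = 0.126; rho = 0.88, exact permutation p = 0.00724, adjusted p = 0.13) and r = 0.82 without the 2 lambs farthest from the PECAM1 median. This holds for the brighter PECAM1 probe set only. In control lambs the dimmer one had r = 0.13 with it, and its relation to ROBO4 was not tested. EMCN and CLDN5 had r = 0.78 in shunt (exact permutation p = 0.0211, adjusted p = 0.19; rho = 0.55, exact permutation p = 0.171), which became r = -0.25 without the 2 lambs farthest from the EMCN median, and r = 0.06 in control. FLI1 and ERG had r = 0.08 in shunt and r = 0.85 in control (exact permutation p = 0.0061, adjusted p = 0.126; rho = 0.74, exact permutation p = 0.0458), and the control value was r = 0.59 without the 2 lambs farthest from the FLI1 median. Differences in r between the groups were not tested. VWF had a negative r with each of the 8 other genes in control lambs, where control replicate 2 had its highest value. FLI1 with VWF was at r = -0.75 (exact permutation p = 0.0209, adjusted p = 0.19), rho = -0.48 (exact permutation p = 0.243, adjusted p = 0.729), and r = -0.46 without that lamb. ROBO4 with VWF was at r = -0.67 (exact permutation p = 0.0586, adjusted p = 0.324), rho = -0.29 (exact permutation p = 0.501, adjusted p = 0.874), and r = -0.13 without that lamb.

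**Figure D4:**
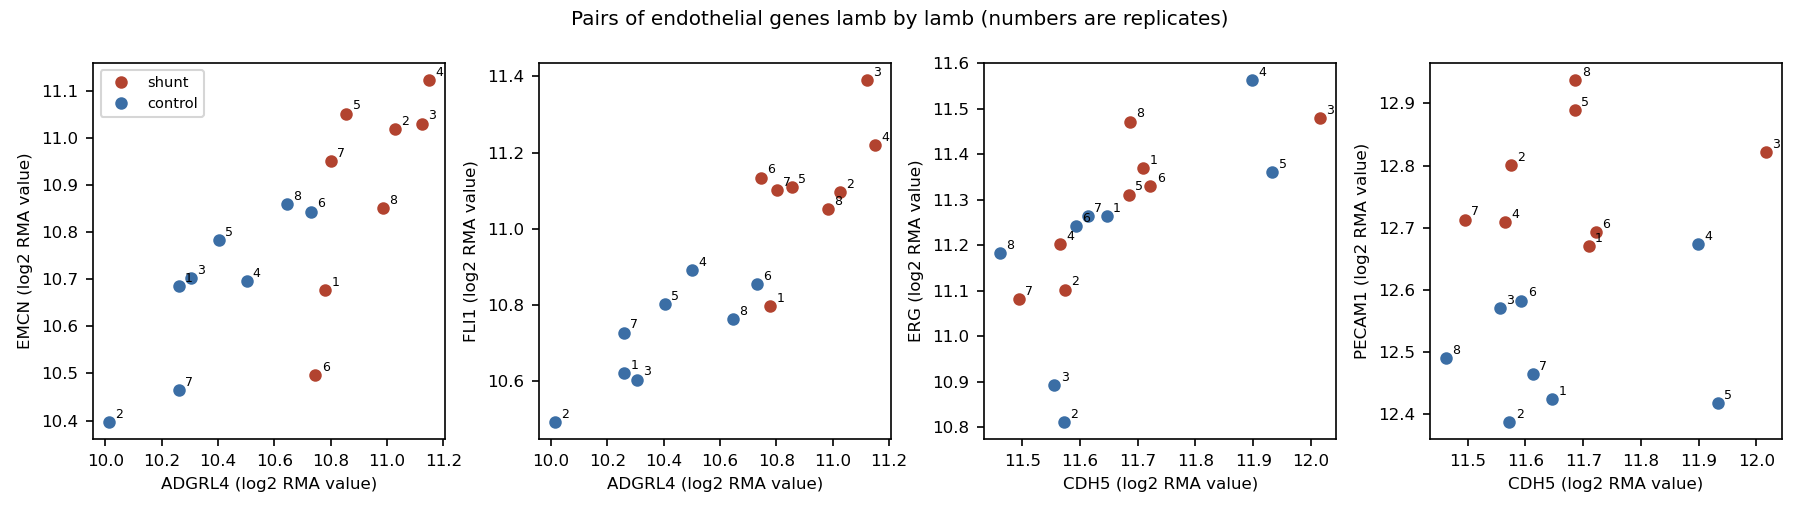
Log2 RMA values of 4 pairs of endothelial genes in 8 shunt lambs (red) and 8 control lambs (blue), numbered by replicate. ADGRL4 and EMCN, ADGRL4 and FLI1, and CDH5 and ERG have positive r within both groups (0.64 to 0.87), while in the plot of CDH5 and PECAM1, 7 of 8 shunt lambs lie above all control lambs in PECAM1.

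Probe sets of the same gene give a check of these values. The probe sets of EMCN moved together in both groups, with r = 0.79 in shunt (exact permutation p = 0.0185, adjusted p = 0.0461 over 10 relations; rho = 0.71, adjusted p = 0.144) and r = 0.81 in control (exact permutation p = 0.0154, adjusted p = 0.0461; rho = 0.83, adjusted p = 0.0513). Without the 2 lambs farthest from the median, r = 0.54 in shunt and r = 0.74 in control. Those of PECAM1 moved together in shunt (r = 0.87, exact permutation p = 0.00635, adjusted p = 0.0317; rho = 0.93, adjusted p = 0.0223; r = 0.79 without the 2 farthest lambs) and had r = 0.13 in control (exact permutation p = 0.753, adjusted p = 0.753; rho = 0.05). Those of CDH5 had r = 0.85 in shunt (exact permutation p = 0.00218, adjusted p = 0.0218; rho = 0.83, adjusted p = 0.0513; r = 0.83 without the 2 farthest lambs) and r = 0.57 in control (exact permutation p = 0.129, adjusted p = 0.185; rho = 0.48; r = 0.03 without the 2 farthest lambs). The ERG probe sets had r = 0.73 in shunt (exact permutation p = 0.0403, adjusted p = 0.0806; rho = 0.62) and r = -0.40 in control (exact permutation p = 0.325, adjusted p = 0.406; rho = -0.29). Without the 2 farthest lambs these were r = 0.25 in shunt and r = -0.64 in control. The VWF probe sets had r = 0.24 in shunt and r = 0.63 in control, and r = -0.47 in shunt and r = 0.24 in control without the 2 farthest lambs. PECAM1 in control had r = -0.05 without them.

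Among 9146 genes outside the set, those most like ADGRL4 by the mean of the 2 within-group r over 8 shunt and 8 control lambs were 5. They were COX16, an assembly factor of cytochrome c oxidase (mean r 0.84), HIRIP3, a histone chaperone (0.82), NSA2, a ribosome biogenesis protein (0.82), HAT1, a histone acetyltransferase (0.80), and PTCD2, a mitochondrial RNA-binding protein (0.80). EMCN, at a mean r of 0.80, came next after these 5, FLI1 was at 0.73 and ROBO4 at 0.68. CDH5, at 0.13, came at rank 3768. None of the 5 passed in the comparison of shunt with control, where they differed by -0.01 for COX16, 0.07 for HIRIP3, 0.04 for NSA2, 0.13 for HAT1 and 0.10 for PTCD2. The genes most like the average of the 9 members were NET1, a guanine nucleotide exchange factor (0.88), EPB41L3, a protein of the membrane skeleton (0.81), ARHGDIB (0.80), SIRPA, a receptor of myeloid cells (0.77), and PTK2, the focal adhesion kinase (0.77). Of these EPB41L3 had the largest difference between groups, 0.38 ± 0.09 (SE, limma adjusted p = 0.115). Both rankings took the highest of 9146 values from 8 lambs per group. No test was made and no level expected by chance was computed, so nothing is read from the ranks.

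Genes that work with the members were read from 6 lists, which named 116 genes and held 75 measured genes. Transcription factors had 10 of 23 measured, and the SLIT and ROBO pathway 6 of 13. None passed in the limma fit, where 0.0655% of all genes passed as higher and 0.0109% as lower by their brightest probe sets. Of the 75, 17 had an unadjusted p under 0.05 and were higher, and 5 were lower, against 6.74% and 7.92% of all genes. Of the 75, 51 were higher at any p and 24 lower, while of all 9155 genes 4109 were higher and 5046 lower. The median difference was 0.08 over the 75 genes and -0.01 over all genes. The lists were written with earlier results of these lambs known.

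Endothelial surface and receptor genes were the most often higher, 21 of 25, beside 4109 of all 9155 genes, with a median difference of 0.15 on the log2 scale. At an unadjusted p under 0.05, 9 were higher and 0 lower (limma), against 6.74% and 7.92% of all genes. ADGRL2, an adhesion receptor of the same family as ADGRL4, was 11.92 ± 0.15 in shunt and 11.59 ± 0.17 in control (SD, n = 8 each), a difference of 0.33 ± 0.08 (SE, limma adjusted p = 0.115), with its other probe set at 0.21. ENG, a co-receptor for TGF-beta ligands on endothelium, differed by 0.32 ± 0.09 (adjusted p = 0.2), and the water channel AQP1 by 0.33 ± 0.10 (adjusted p = 0.219), with its other probe sets at 0.38 and -0.03. These 3 genes had the smallest p of the list. Other endothelial genes on it were NOS3 at 0.36, TEK at 0.20, TIE1 at 0.17, CD34 at 0.10 and EGFL7 at -0.06. KDR was at 0.08, with its other probe set at -0.09, and FLT1 at 0.04, with its other probe sets at -0.07 and -0.11.

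Transcription factors of endothelium were higher for 7 of 10 genes, beside 4109 of all 9155 genes. An unadjusted p under 0.05 (limma) was found for 4 higher and 1 lower gene, against 6.74% and 7.92% of all genes. SOX18 was 8.92 ± 0.27 in shunt and 8.34 ± 0.46 in control (SD, n = 8 each), a difference of 0.58 ± 0.17 (SE, limma adjusted p = 0.198). ETS2, of the same family as ERG and FLI1, differed by 0.23 ± 0.07 (adjusted p = 0.212), with its other probe set at 0.32, and MEF2C by -0.16 ± 0.06 (adjusted p = 0.248). In the Weibel-Palade body and haemostasis list, 8 of 11 genes were higher, beside the same 4109 of 9155. ANGPT2, which is stored in these granules with VWF, differed by 0.66 ± 0.13 (adjusted p = 0.0609), PROCR by 0.31 ± 0.14 (adjusted p = 0.338) and THBD by 0.14 ± 0.07 (adjusted p = 0.385).

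Junction partners were mixed. Of 14 partners of the adherens junction 9 were higher, beside 4109 of all 9155 genes, with a median difference of 0.05. PTPRB, a phosphatase that acts on CDH5, was 11.22 ± 0.19 in shunt and 10.90 ± 0.26 in control (SD, n = 8 each), a difference of 0.32 ± 0.10 (SE, limma adjusted p = 0.239), RADIL was at -0.15 ± 0.05 (adjusted p = 0.245) and CTNNB1, beta-catenin, at 0.07 ± 0.04 (adjusted p = 0.42). Of 9 tight junction and junctional adhesion genes 4 were higher and 5 lower, with a median of -0.04, and at an unadjusted p under 0.05 there were 0 higher and 3 lower. These were MAGI3 at -0.18 ± 0.07 (adjusted p = 0.298), with other probe sets at 0.03, 0.05 and -0.17, PARD6A at -0.10 ± 0.04 (adjusted p = 0.348) and CGN, cingulin of epithelial and endothelial tight junctions, at -0.21 ± 0.10 (adjusted p = 0.359). Several tight junction genes are also made by epithelium, whose markers were lower as given above, and the part of epithelium in these values was not tested.

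Among 6 genes of the SLIT and ROBO pathway 2 were higher, beside 4109 of all 9155 genes. SLIT3, a ligand of this receptor family, was 11.22 ± 0.20 in shunt and 10.82 ± 0.21 in control (SD, n = 8 each), a difference of 0.40 ± 0.10 (SE, limma adjusted p = 0.115), with its other probe set at 0.30. ROBO2 was at -0.13 ± 0.10 (adjusted p = 0.56) and SRGAP1 at -0.09 ± 0.06 (adjusted p = 0.524), both dim, at percentiles 19.6 and 24.7 of all probe sets.

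**Figure D5:**
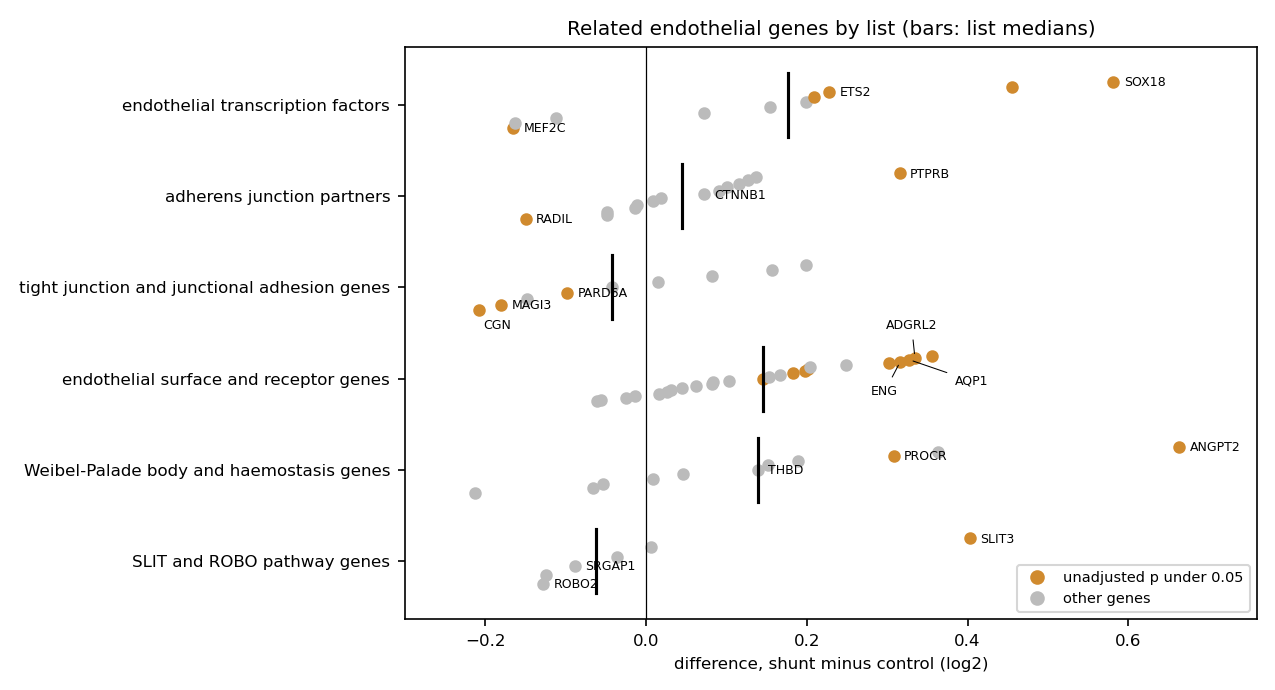
Difference in log2 level, shunt minus control, of 75 genes on 6 lists of related endothelial genes (1 point per gene, by its brightest probe set), with list medians as bars; orange marks an unadjusted p under 0.05 (limma). Surface and receptor genes lie mostly above 0 (21 of 25), while tight junction genes lie on both sides (4 higher, 5 lower). Named points are the 3 genes of smallest p in each list.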

How the data were processed

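Lung RNA of 8 shunt and 8 control lambs was hybridized to bovine Affymetrix arrays, with biotinylated cRNA made from 1 ug of total RNA per the labels' protocols. The deposited values are on a log2 scale, with 1 for each probe set on each array. They came from RMA, per the submitters' processing notes, in a version that was not stated. RMA normalizes arrays to each other, and sheep RNA on bovine probes can lose signal through sequence differences. Batches were not tested, as scan dates and detection calls were not given, and the number of arrays limits the precision. Of 24128 probe sets, 112 controls were left out. The platform annotation gave 13292 probe sets 1 symbol, 86 several and 10638 none; all 9 measured members had a sheep gene of the same symbol. Genome positions and sequences were not used here.

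Shunt minus control was tested by limma 3.58.1 under R 4.3.3 (lmFit, eBayes, no covariate, two-sided), with Benjamini-Hochberg adjustment over 24016 probe sets at 0.05. Related genes were read by the probe set of highest mean. Correlations used exact permutation over the pairings of 8 lambs. Members and lists were chosen with earlier results of these data known. Named genes were all member probe sets, the called genes of each list filled to 3 by smallest p, and the 5 genes most like ADGRL4 and the 5 most like the member average. From the surface list NOS3, TEK, TIE1, CD34, EGFL7, KDR and FLT1 were given as well. On simulated data for shunt minus control over 24016 probe sets, 42 of 67 changes of 0.3, 63 of 67 of 0.6 and 66 of 66 of 1 on the log2 scale were recovered, with 4 false calls. The simulated noise was normal and independent between probe sets, with no shared array effect. These values therefore check the fit and do not give the power or false calls in these lambs. The alternatives were a replicate block, a filter leaving out the dimmest 25%, array weights, centring on array medians, 1 probe set per gene, a trended and robust prior, quantile normalization again, Spearman's rho, and each array left out.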

Additional observations from a re-analysis of the deposited data

Results flagged for a closer look

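In 6 of 100 sets of 8 values, 1 lamb stood off: its distance to the next lamb exceeded 0.526 of the whole range, which chance gives in about 5. The sets were the 14 probe sets, 18 related genes, 15 marker lists and 3 array measures in both groups. Shunt replicate 3 had the highest value of the brighter CDH5 probe set, 12.02 against 11.49 to 11.72 in the other shunt lambs. Shunt replicate 1 had the lowest value of the brighter VWF probe set, 4.85 against 4.99 to 5.12, and control replicate 2 the highest, 5.41 against 5.02 to 5.18 in the other controls. Control replicate 6 had the lowest CGN, 9.54 against 9.88 to 10.06. Control replicate 2 also had the lowest mean of macrophage markers, 8.78 against 9.29 to 9.61, and the lowest array correlation, which averaged 0.983, with 0.990 to 0.993 for the other controls.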

How the results depend on the processing

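Calls moved with the setting more than differences did. Of all probe sets 17 passed, 0 with a replicate block, 10 after quantile normalization again, 26 centred on array medians, 45 with array weights and 8 with 1 probe set per gene. Of the members 2 passed, 0 with a replicate block, 1 after quantile normalization again, 4 centred on array medians, 4 with a trended and robust prior, 1 with 1 probe set per gene, and 3 each without dim probe sets and with array weights. FLI1 was gained in the 4 settings with more calls, the brighter PECAM1 probe set with centring and the trended and robust prior, and the dimmer PECAM1 probe set was lost after quantile normalization again. A fit of 1 probe set per gene drops the dimmer PECAM1 probe set by construction, and the cause of the other shifts was not tested. No pairing by replicate number was seen: correlations of deviations ran from -0.259 to 0.222 and 0 of 8 shunt arrays correlated best with their own number. The labels do not say whether the numbers pair lambs, and these correlations cannot exclude it. With 1 array left out, from 6 to 75 probe sets passed, most without shunt replicate 1, and from 0 to 4 members. The member median ran from 0.15 to 0.20. No related gene passed in any of the 7 other settings or the 16 fits with 1 array left out, and no member pair in any setting tried. The dimmer ERG difference reversed with array weights (0.0177) and without control replicate 2; with 1 array left out it ran from -0.1326 to 0.0061. The brighter CDH5 difference reversed after quantile normalization again (-0.0222), without shunt replicate 3 and without control replicate 8 (-0.0058); with 1 array left out it ran from -0.0253 to 0.0615. Signal over background was unknown, which limits VWF and the dimmer ERG probe set.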

Other observations

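Lymphatic endothelial markers were higher for 1 of 4 genes, with a list mean from 9.63 to 9.93 in shunt and from 9.53 to 10.09 in control. Fibroblast markers were higher for 4 of 8 and lower for 4. Erythroid markers were higher for 4 of 7, with a list mean from 6.95 to 7.34 in shunt and from 6.60 to 7.74 in control. Of B cell markers 1 of 2 was higher, of mesothelial markers 0 of 2, and the 1 ciliated cell marker measured, TPPP3, differed by 0.0041. None of the genes on these lists passed in the limma fit.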
